A study of Mus musculus with 6 samples.

Results

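The genes described here encode the laminins, nidogens and heparan sulfate proteoglycans of the basement membrane. They were chosen by symbol, as Lama2, Lama4, Lama5, Lamb1, Lamb2, Lamc1, Nid1, Nid2, Hspg2 and Agrn, and all 10 were found among the 25239 rows of the gene table. The senescent group was 3 libraries of mouse primary pulmonary fibroblasts that, per the labels, were exposed to the Cdk1 inhibitor RO3306 for 16 hours and to Nutlin 3a, which keeps Mdm2 from binding p53, for 48 hours, and then held in 100 nM of the Plk1 inhibitor BI-2536, which acts on dividing cells, with 12 days as the stated total. The quiescent group was 3 libraries of the same cell type. The treatment text, which describes the making of senescent cells, stands word for word on the quiescent samples too, and only the sample names and the cell cycle state tell the groups apart. The sources used here do not say how quiescence was reached or whether quiescent cells met any of these compounds, nor do they give the strain, age or number of mice. Both groups grew in 10% serum under 5% oxygen. The libraries hold ribosomal RNA-depleted total RNA, and whether replicates are separate cultures is not stated, so p-values reflect only how far these samples spread, and that spread could be technical.

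A basement membrane is a thin sheet of matrix that lies under epithelia and endothelia and around muscle, fat and nerve. Laminins are secreted as trimers of an alpha, a beta and a gamma chain, and the trimers join into a network at the cell surface. The alpha chain carries the main binding sites for integrins and dystroglycan, so the alpha chain sets which receptors a laminin engages. Nidogens and perlecan, the product of Hspg2, tie this network to collagen IV, and agrin links laminin to the dystroglycan of the cell surface. In lung, interstitial fibroblasts contribute laminin and nidogen to the membranes of the alveolar wall.

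Promoter sequence was available from RefSeq (GRCm38.p6) for 7 of the 10 genes, taken here as the 250 bases before the annotated start. The 2 genes that were higher in senescent libraries and the gene with the lowest fold change are shown, since their promoters differ in base composition. Capitals mark GC boxes, searched as GGGCGG on both strands.
Lama5, chr2:180225860-180226109, minus strand: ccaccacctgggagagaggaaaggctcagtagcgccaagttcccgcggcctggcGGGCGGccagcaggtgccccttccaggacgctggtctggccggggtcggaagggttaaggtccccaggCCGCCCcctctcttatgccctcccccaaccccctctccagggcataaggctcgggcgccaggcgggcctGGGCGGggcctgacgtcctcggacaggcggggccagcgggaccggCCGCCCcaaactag
Hspg2, chr4:137468553-137468802, plus strand: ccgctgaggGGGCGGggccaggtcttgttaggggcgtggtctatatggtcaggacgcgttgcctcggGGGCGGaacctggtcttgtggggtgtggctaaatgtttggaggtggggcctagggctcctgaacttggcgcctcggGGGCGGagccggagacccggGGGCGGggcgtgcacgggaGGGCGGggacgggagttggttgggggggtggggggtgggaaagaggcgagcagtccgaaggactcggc
Lama2, chr10:27616943-27617192, minus strand: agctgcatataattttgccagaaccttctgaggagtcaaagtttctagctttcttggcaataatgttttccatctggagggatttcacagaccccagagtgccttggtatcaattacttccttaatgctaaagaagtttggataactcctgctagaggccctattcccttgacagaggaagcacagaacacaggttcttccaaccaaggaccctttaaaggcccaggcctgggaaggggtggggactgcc
The Lama5 promoter held 4 GC boxes, 19 CG dinucleotides and 72.4% G and C, and that of Hspg2 held 5 GC boxes, 20 CG dinucleotides and 70.0% G and C. In the Lama2 promoter, whose RefSeq start lies inside the longer gene span of GENCODE, there were 0 GC boxes, 0 CG dinucleotides and 47.2% G and C. Over all 32851 RefSeq promoter windows of this length, 32.7% held a GC box, and the medians were 6 CG dinucleotides and 52.4% G and C. The 2 listed promoters of Agrn, which was lower in senescent libraries, held 12 and 2 GC boxes, and the second of them lies inside its gene span. They held 35 and 8 CG dinucleotides and 83.6% and 60.8% G and C. Lamb2, also lower, held 0 GC boxes, 3 CG dinucleotides and 43.6% G and C. Lamb1 and Nid1, which did not pass the test, held 2 and 1 GC boxes. No promoter sequence was available for Lama4, Lamc1 and Nid2, which were lower, and a link between GC boxes and the direction of change was not tested. Neither TGANTCA, the core of the AP-1 site, found in 6.75% of all windows, nor the TATA box TATAAA, found in 12.4%, was present on either strand in these 7 genes. A match or its absence is a description of these windows only.

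Total counts ran from 93736593 to 109706025 per library, and 79.8% to 82.8% of them lay in 3 rows, Rn45s, the ribosomal RNA precursor, Lars2 and Mir6236, which left 18219831 to 21386546 counts for other genes. Levels are CPM on TMM-scaled library sizes with those rows included, and so are low in absolute terms. Cdkn1a, which encodes p21, averaged 65.8 ± 5.25 CPM in senescent and 29.9 ± 0.901 CPM in quiescent libraries (SD, n = 3 each). The proliferation gene Mki67 averaged 10.4 ± 1.34 CPM in senescent and 52.6 ± 2.13 CPM in quiescent libraries (SD, n = 3 each). Mki67 was thus higher in the group named quiescent (log2 fold change -2.33), and whether some of its cells were dividing was not tested. Senescent replicate 3 stood apart: a chi-square of its counts against those of senescent replicates 1 and 2 averaged 15.8 and 20.1 per gene, against 3.92 between replicates 1 and 2 and 2.27 to 4.11 among quiescent libraries, where 1 is sampling noise. Fibroblast markers summed to 4075 to 4511 CPM in senescent and 4826 to 4965 CPM in quiescent libraries, with Fn1, fibronectin, the most abundant in the senescent and Col3a1 in the quiescent group. Of these 10 markers 4 were higher and 5 lower (2 and 6 with library totals in place of TMM). The higher ones were Thy1 by 2.72, Fn1 by 0.94, Vim by 0.32 and Dcn by 0.18 on the log2 scale. The log2 fold changes of the lower ones were -1.95 for Col3a1, -1.45 for Pdgfra, -1.01 for Pdgfrb, -0.47 for Col1a2 and -0.46 for Lum. Col3a1 averaged 348 CPM in senescent and 1342 CPM in quiescent libraries. Over all tested genes the shares were 36.7% higher and 37.8% lower. Pdgfra was lower at 80.4 ± 5.41 CPM in senescent against 219 ± 15.5 CPM in quiescent libraries, and Col1a1 did not pass the test, at 856 ± 104 CPM in senescent and 967 ± 53.5 CPM in quiescent libraries.

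By edgeR's quasi-likelihood test, with an adjusted p under 0.05 as the threshold, senescent libraries had more RNA of 2 of the 10 genes, Lama5 and Hspg2, and less of 6, and Lamb1 and Nid1 did not pass. All 10 passed the filter on low counts. Over all 14065 tested genes, 36.7% were higher and 37.8% lower by the same rule, so that a gene that passes is common in this comparison. The median log2 fold change of the 10 genes was -0.33, beside -0.02 over all tested genes. Scaling by library totals alone moved the all-gene median to -0.32 and the split of the 10 genes to 1 higher and 8 lower, with 2952 higher and 7435 lower among all genes. Because the RNA is from bulk cultures, fewer cells that express a gene and less of its RNA per cell cannot be told apart.

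**Figure D1:**
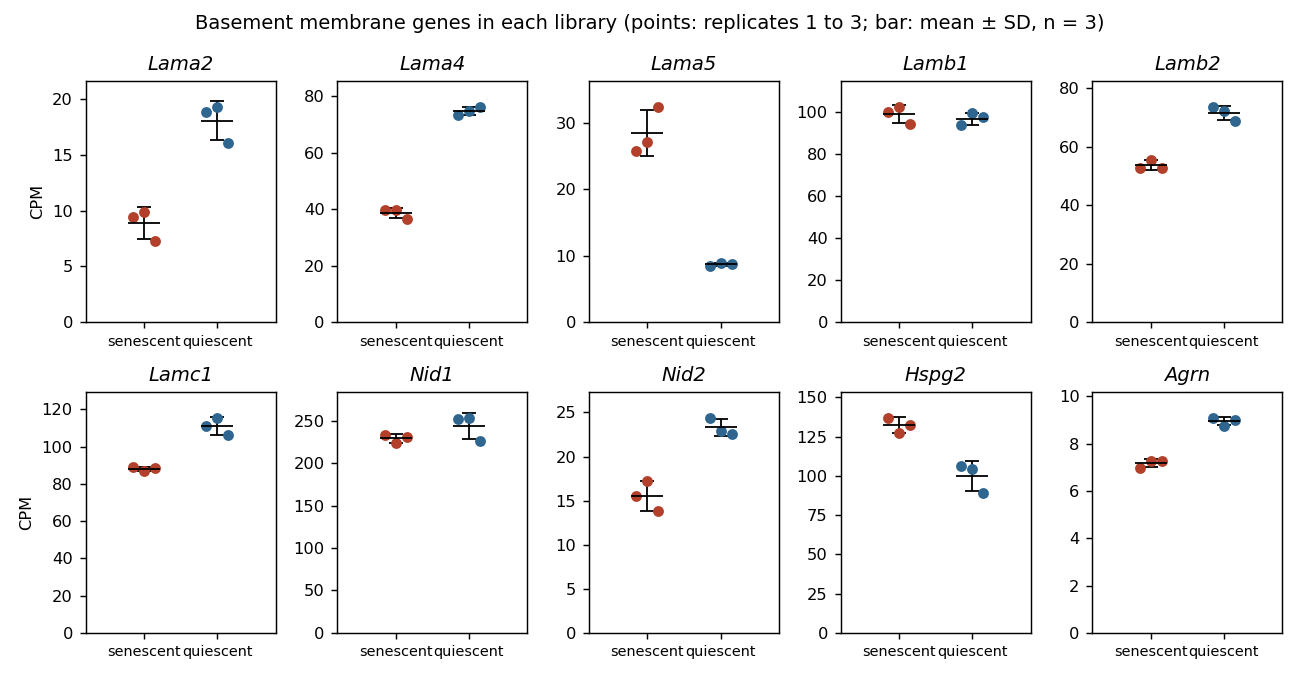
CPM of each gene in the 3 senescent (left, red) and 3 quiescent (right, blue) libraries, with the mean and SD of each group; every y axis starts at 0. Lama5 lies at 25.8 to 32.4 CPM in senescent and 8.49 to 8.89 CPM in quiescent libraries, while Lama2 and Lama4 lie lower in the senescent group.

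The laminin alpha chains moved in opposite directions. Lama5 (chromosome 2, 180176373 to 180225859, minus strand, GRCm38) encodes the alpha 5 chain, which is widespread in adult epithelial and vascular basement membranes. It had 25.8, 27.1 and 32.4 CPM in senescent replicates 1 to 3, against 8.49, 8.89 and 8.78 CPM in quiescent replicates 1 to 3. Every senescent library was above every quiescent one, and senescent replicate 3 held the most. The mean was 28.4 ± 3.49 CPM in senescent and 8.72 ± 0.209 CPM in quiescent libraries (SD, n = 3 each), a ratio of 3.26 and a log2 fold change of 1.70 (standard error 0.08, adjusted p = 1.1e-08, edgeR). This was the largest change of the 10 genes, and rank 1609 by size among the 14065 tested. Without senescent replicate 3 the log2 fold change was 1.60.

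Lama4 (chromosome 10, 38965515 to 39110188, plus strand) encodes the alpha 4 chain of endothelial and mesenchymal laminins, which has a shortened amino-terminal arm. It had 39.8, 39.8 and 36.7 CPM in senescent and 73.5, 75.0 and 76.3 CPM in quiescent libraries. The groups lay far apart, with little spread inside each. The mean was 38.8 ± 1.78 CPM in senescent and 74.9 ± 1.40 CPM in quiescent libraries, and the log2 fold change was -0.95 (standard error 0.05, adjusted p = 1.2e-08, edgeR).

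Lama2 (chromosome 10, 26980036 to 27619758, minus strand) encodes the alpha 2 chain, the laminin of muscle and Schwann cell membranes whose loss causes a congenital muscular dystrophy. In senescent libraries it had 9.48, 9.90 and 7.26 CPM, against 18.9, 19.3 and 16.0 CPM in quiescent libraries. Replicate 3 was the lowest of its group in both. The mean was 8.88 ± 1.42 CPM in senescent and 18.1 ± 1.78 CPM in quiescent libraries, with a log2 fold change of -1.03 (standard error 0.12, adjusted p = 6.0e-05, edgeR). Without senescent replicate 3, the library with the least Lama2, it was -0.90.

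Ratios of 2 genes inside a library do not depend on how libraries are scaled, and 6 such ratios were compared by exact permutation of the libraries, two-sided. With 3 against 3 libraries no p can be below 0.1, and the ratios that reached it had an adjusted p of 0.12 (Benjamini-Hochberg over the 6). On the log2 scale, the count ratio of Lama5 to Lama4 was -0.45 ± 0.24 in senescent and -3.10 ± 0.02 in quiescent libraries, a difference of 2.65, or 6.27-fold. For Lama5 to Lama2 it was 1.68 ± 0.41 in senescent and -1.05 ± 0.16 in quiescent libraries, a difference of 2.73. Neither pair of groups overlapped, and each exact test gave the smallest p, 0.1. By contrast, the ratio of Lama4 to Lama2 was 2.14 ± 0.18 in senescent and 2.05 ± 0.17 in quiescent libraries, and the groups overlapped (exact p = 0.5). Its difference of 0.08 became -0.02 without senescent replicate 3.

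Levels of different genes were compared per kb of exon, with exons of all GENCODE transcripts merged. As a share of Lama2, Lama4 and Lama5 summed, Lama5 made up 36.9%, 37.8% and 44.9% in senescent replicates 1 to 3, against 9.33%, 9.55% and 9.55% in quiescent replicates. Lama4 was the most abundant alpha chain in all 6 libraries, with 51.4% ± 2.96 of the sum in senescent and 76.8% ± 1.27 in quiescent libraries. Lama2 held 8.70% ± 1.46 in senescent and 13.7% ± 1.33 in quiescent libraries (SD, n = 3 each; exact p = 0.1 for each chain). The merged exons of Lama2 and Lama4 are longer than any single transcript of theirs, and with the length of the longest transcript the Lama5 share was 25.4% ± 3.48 in senescent and 5.09% ± 0.0681 in quiescent libraries. The order of the chains within each group was the same by that length in quiescent libraries, with Lama4 first and Lama5 last, and in senescent libraries, with Lama4 first and Lama2 last.

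**Figure D2:**
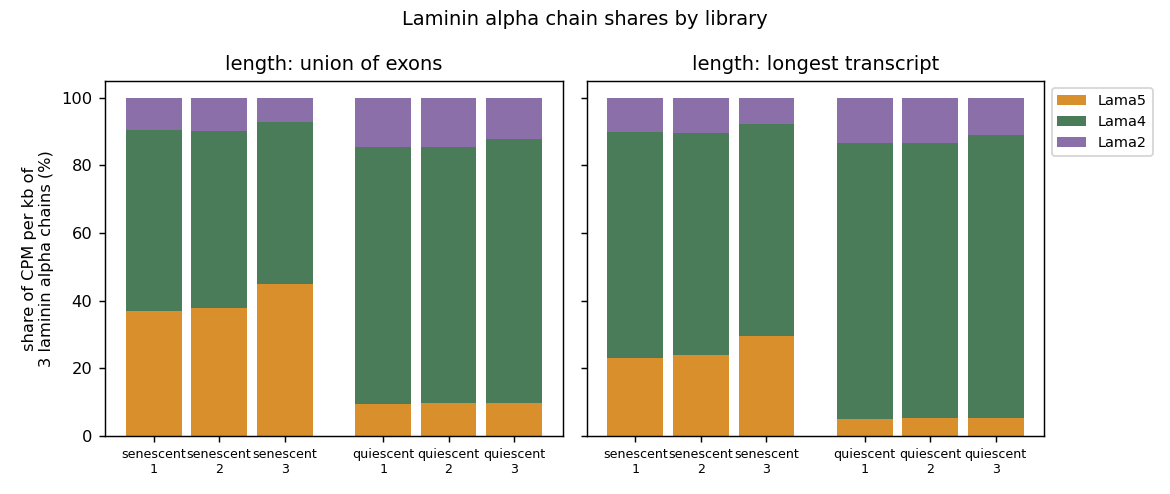
Share of each laminin alpha chain in the summed CPM per kb of Lama2, Lama4 and Lama5 (y axis, percent), in the senescent libraries (left 3 bars of each panel) and the quiescent libraries (right 3 bars), with 2 definitions of gene length. Lama5 takes 36.9% to 44.9% in senescent and 9.33% to 9.55% in quiescent libraries by merged exons, and smaller shares by longest transcript.

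Of the beta and gamma chains, Lamb1 did not pass the test while Lamb2 and Lamc1 were lower. Lamb1 (chromosome 12, 31265234 to 31329644, plus strand), the beta 1 chain, had 99.9, 102 and 94.0 CPM in senescent and 93.7, 99.3 and 97.3 CPM in quiescent libraries. The groups overlapped. Its log2 fold change was 0.03, with a 95% interval of -0.08 to 0.14 (adjusted p = 0.62, edgeR), and library totals alone gave -0.27 with an adjusted p of 0.0040 in edgeR.

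Lamb2 (chromosome 9, 108479736 to 108490530, plus strand) encodes the beta 2 chain, found at the neuromuscular junction and in the kidney glomerulus. It had 52.7, 55.6 and 52.9 CPM in senescent libraries, all below the 73.7, 72.3 and 68.9 CPM of quiescent libraries. The log2 fold change was -0.41 (standard error 0.05, adjusted p = 1.0e-05, edgeR). The log2 count ratio of Lamb2 to Lamb1 was -0.88 ± 0.05 in senescent and -0.43 ± 0.08 in quiescent libraries, without overlap (exact p = 0.1).

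Lamc1 (chromosome 1, 153218922 to 153332786, minus strand) encodes the gamma 1 chain, the partner of most laminin trimers. It had 88.9, 86.9 and 88.7 CPM in senescent and 111, 116 and 106 CPM in quiescent libraries, again without overlap, and a log2 fold change of -0.33 (standard error 0.05, adjusted p = 7.6e-05, edgeR). Summed per kb of merged exon, the alpha chains came to 6.25 ± 0.0994 CPM in senescent and 8.08 ± 0.0931 CPM in quiescent libraries, and the beta chains to 18.8 ± 0.646 CPM in senescent and 21.5 ± 0.381 CPM in quiescent libraries. Lamc1 came to 10.7 ± 0.135 CPM per kb in senescent and 13.4 ± 0.583 in quiescent libraries. All 3 classes were lower in each senescent library than in any quiescent one (exact p = 0.1 each). Alpha chains were the scarcest class in every library by this measure. By longest transcript the alpha sum was 9.83 ± 0.162 CPM per kb in senescent and 15.0 ± 0.165 CPM per kb in quiescent libraries, beside 11.6 ± 0.146 in senescent and 14.6 ± 0.633 in quiescent libraries for Lamc1, so that in quiescent libraries the order of alpha and gamma depended on the length used.

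The nidogens differed from each other. Nid1 (chromosome 13, 13437551 to 13512269, plus strand), nidogen 1 or entactin, had 233, 224 and 230 CPM in senescent and 252, 254 and 227 CPM in quiescent libraries. Quiescent replicate 3 lay among the senescent values. The log2 fold change was -0.09, with a 95% interval of -0.22 to 0.03 (adjusted p = 0.17, edgeR). Without quiescent replicate 3 it was -0.14 and passed (adjusted p = 0.046, edgeR), as it did with upper quartile scaling (-0.19, adjusted p = 0.012) and library totals alone (-0.39, adjusted p = 7.5e-04), over a range of adjusted p from 7.5e-04 to 0.42 in 16 alternatives.

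Nid2 (chromosome 14, 19751265 to 19811787, plus strand), its paralogue with a more restricted distribution, had 15.5, 17.2 and 13.8 CPM in senescent and 24.4, 22.9 and 22.6 CPM in quiescent libraries. The groups were well apart. Its log2 fold change was -0.59 (standard error 0.07, adjusted p = 2.4e-05, edgeR). The opposite-strand gene Rtraf overlaps 437 bases of Nid2 exon, 8.45% of its length, and since the counting strand is not given its reads may be shared; Rtraf itself had 7.49 ± 0.656 CPM in senescent and 6.69 ± 0.629 CPM in quiescent libraries and did not pass (adjusted p = 0.10, edgeR). The log2 count ratio of Nid2 to Nid1 was -3.89 ± 0.18 in senescent and -3.39 ± 0.07 in quiescent libraries (exact p = 0.1, no overlap).

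The proteoglycans also parted. Hspg2 (chromosome 4, 137468769 to 137570630, plus strand) encodes perlecan, a large heparan sulfate proteoglycan that binds growth factors as well as laminin and nidogen. It had 137, 127 and 133 CPM in senescent libraries, above the 106, 104 and 89.2 CPM of quiescent libraries. The mean was 132 ± 4.96 CPM in senescent and 100.0 ± 9.39 CPM in quiescent libraries, and the log2 fold change was 0.40 (standard error 0.07, adjusted p = 2.0e-04, edgeR). This call was lost under library totals alone, at 0.10 (adjusted p = 0.34, edgeR), and held in the other 15 of 16 alternatives, with adjusted p from 2.1e-07 to 0.34 over all of them.

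Agrn (chromosome 4, 156165290 to 156197488, minus strand) encodes agrin, the proteoglycan that gathers acetylcholine receptors at the neuromuscular junction. It had 6.98, 7.29 and 7.25 CPM in senescent and 9.11, 8.75 and 9.00 CPM in quiescent libraries. Spread within groups was small, and the log2 fold change was -0.32 (standard error 0.06, adjusted p = 2.9e-04, edgeR). The log2 count ratio of Agrn to Hspg2 was -4.21 ± 0.09 in senescent and -3.48 ± 0.15 in quiescent libraries, a difference of -0.73 with no overlap (exact p = 0.1). In all, the groups did not overlap for 8 of the 10 genes, beside 78.3% of all tested genes.

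**Figure D3:**
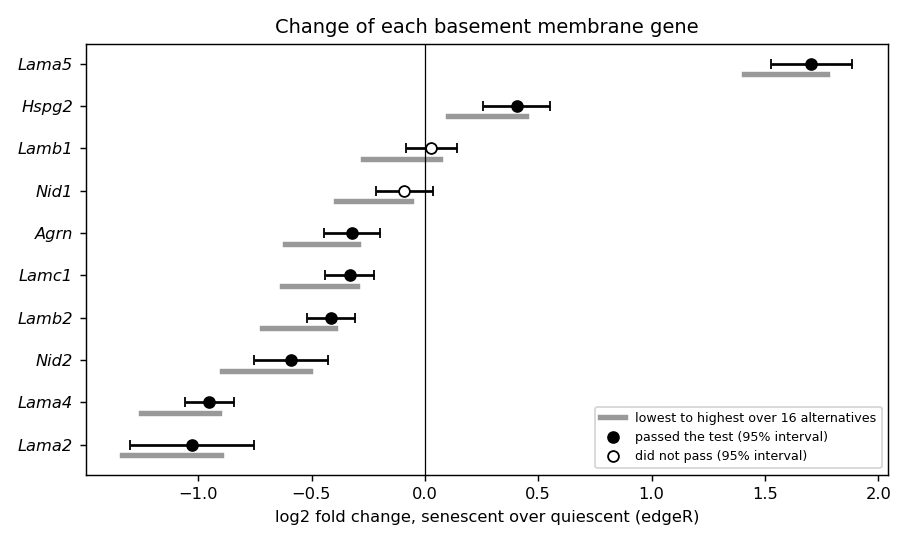
Log2 fold change of senescent over quiescent libraries (x axis) for each gene, with its 95% interval from edgeR; filled points passed the test, open points did not, and the grey bars run from the lowest to the highest value over 16 alternatives. Lama5 at 1.70 and Hspg2 at 0.40 lie above 0, Lamb1 and Nid1 have intervals that hold 0, and Lama2 is the lowest at -1.03.

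Per kb of merged exon, Nid1 was the most abundant of the 10 genes in both groups, at 33.0 ± 0.695 CPM per kb in senescent and 35.1 ± 2.19 in quiescent libraries. In senescent libraries the order after Nid1 was Lamc1 (10.7), Lamb1 (9.95), Hspg2 (9.25), Lamb2 (8.84), Lama4 (3.21), Nid2 (3.00), Lama5 (2.49), Agrn (0.772) and Lama2 (0.543 CPM per kb). The libraries of Lamb1 and Hspg2, of Hspg2 and Lamb2, of Lama4 and Nid2, and of Nid2 and Lama5 overlapped in that order, and the other neighbours did not. In quiescent libraries it was Lamc1 (13.4), Lamb2 (11.8), Lamb1 (9.75), Hspg2 (6.99), Lama4 (6.21), Nid2 (4.51), Lama2 (1.11), Agrn (0.964) and Lama5 (0.766 CPM per kb), where only Hspg2 and Lama4 overlapped among neighbours. Lama5 was thus eighth of the 10 in senescent libraries and last in quiescent ones, also by longest transcript, while Lamb1 took the second place in both groups by longest transcript.

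**Figure D4:**
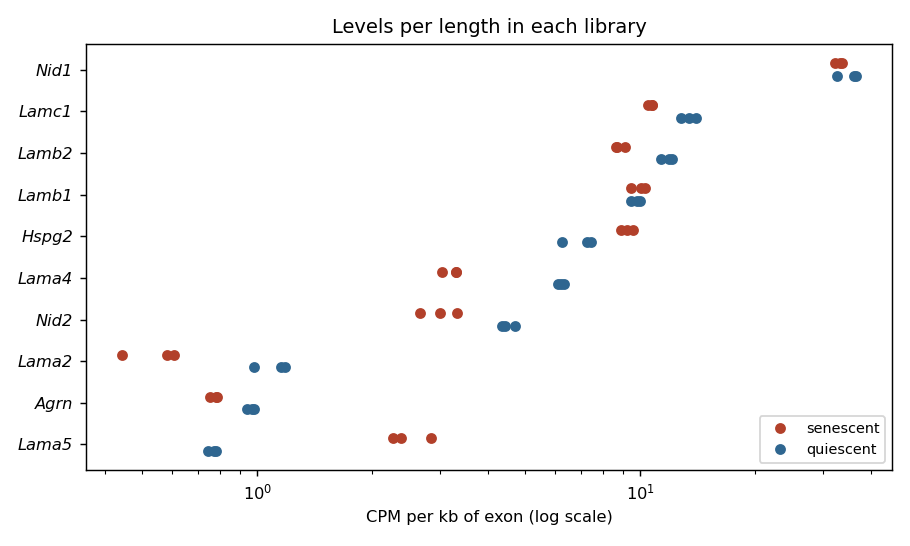
CPM per kb of merged exon (log x axis) in each senescent (red, upper row of each gene) and quiescent (blue, lower row) library, with genes ordered by their quiescent mean. Nid1 averages 33.0 CPM per kb in senescent and 35.1 in quiescent libraries, and Lama5 goes against the others at the low end, at 2.49 in senescent and 0.766 in quiescent libraries.

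Over the 6 libraries, the genes whose centred log2 CPM lay nearest to that of Lama5 were Slc20a1, a phosphate transporter gene, Sdc4, which encodes the heparan sulfate proteoglycan syndecan 4, and Atp13a3, a polyamine transport ATPase gene. Their root mean square distances were 0.041, 0.043 and 0.045 on the log2 scale and their log2 fold changes 1.72, 1.73 and 1.66. Nearest to Lama2 were Atp2b4, a calcium pump gene, Morn1 and Tiam1, an activator of Rac, at distances of 0.043, 0.049 and 0.054 and log2 fold changes of -1.03, -1.13 and -1.01. These likenesses rest on 6 libraries in 2 groups and are a description.

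The other genes of the basement membrane were read from lists of the same fit, whose counts stand beside 36.7% higher and 37.8% lower over all tested genes. Of 6 other laminin-family genes, 4 could be tested, of which 2 were higher and 2 lower (median log2 fold change 0.08), and Lama3 and Lamc3 were under the filter. Lamb3, a beta chain of epithelial laminin, was lower at 0.167 ± 0.0554 CPM in senescent against 0.520 ± 0.0907 CPM in quiescent libraries, and Lama3 had 0.102 ± 0.0489 CPM in senescent and 0.0718 ± 0.0231 CPM in quiescent libraries. Ntn4, netrin 4, a laminin-related protein that disrupts laminin networks, was higher by 1.05 on the log2 scale, and Lama1, the alpha 1 chain of the early embryo, fell by 0.88.

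Among 10 basement membrane collagens and cross-linking enzymes, 4 were higher and 5 lower, with a median log2 fold change of -0.15. Col4a1 and Col4a2, the chains of the ubiquitous collagen IV trimer, were the most abundant, at 587 ± 19.9 and 409 ± 9.69 CPM in senescent against 225 ± 11.1 and 154 ± 8.94 CPM in quiescent libraries. Their log2 fold changes were 1.38 and 1.41, each (standard error 0.06, adjusted p = 2.1e-09 and 1.7e-09, edgeR). Col15a1, collagen XV, rose by 1.95 on the log2 scale. Col18a1, the collagen that yields endostatin, fell by 0.77 and Col4a6 by 0.44. The summed level of this list was 1118 to 1201 CPM in senescent and 479 to 525 CPM in quiescent libraries, whereas that of the 10 laminin, nidogen and proteoglycan genes was 696 to 710 CPM in senescent and 721 to 780 CPM in quiescent libraries.

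Of 14 tested proteins of the membrane zone, 6 were higher and 7 lower, and the median log2 fold change was -0.21. Smoc1, a SPARC-related calcium-binding protein gene, was higher by 2.07 on the log2 scale and Npnt, nephronectin, a ligand of integrin alpha 8, by 1.92. Hmcn1, hemicentin 1, averaged 3.65 ± 0.361 CPM in senescent and 50.8 ± 6.53 CPM in quiescent libraries (log2 fold change -3.80, standard error 0.11), and Fras1, which anchors embryonic epithelia, fell by 3.39 on the log2 scale.

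Of 15 receptor genes, 7 were higher and 7 lower, and their median log2 fold change was -0.32. Itga6, the alpha subunit of the laminin integrins alpha 6 beta 1 and alpha 6 beta 4, was at 2.10 ± 0.374 CPM in senescent and 0.293 ± 0.0107 CPM in quiescent libraries (log2 fold change 2.84, standard error 0.17). Itga7, the laminin integrin subunit of muscle, rose by 1.92 on the log2 scale, at 2.10 CPM in senescent and 0.555 CPM in quiescent libraries. Itga1, a subunit of a collagen and laminin receptor, fell by 2.80, and Lrp4, the receptor of agrin at the neuromuscular junction, by 2.04. Sdc4, already named beside Lama5, was at 180 ± 22.7 CPM in senescent and 54.0 ± 1.18 CPM in quiescent libraries. Itgb1, the integrin beta 1 subunit, was higher at 644 ± 32.4 CPM in senescent against 287 ± 9.01 CPM in quiescent libraries. Dag1, which encodes dystroglycan, was lower at 50.1 ± 4.89 CPM in senescent against 84.9 ± 2.87 CPM in quiescent libraries.

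Of 15 tested enzymes that build the laminin-binding sugar of dystroglycan, 7 were higher and 4 lower, with a median log2 fold change of 0.12. Dpm2, a subunit of the enzyme that makes the mannose donor, rose by 0.51, and Pomt2, an O-mannosyltransferase gene, fell by 0.69 and B4gat1 by 0.48 on the log2 scale. Under library totals alone 1 of them was higher and 6 lower, and Dpm2 did not pass (0.21, adjusted p = 0.079, edgeR). Of 20 tested enzymes of heparan sulfate, the chains that perlecan and agrin carry, 10 were higher and 5 lower, with a median log2 fold change of 0.15. Xylt1, which starts the chains, was higher by 2.18 and the sulfotransferase gene Hs6st2 by 1.19, and the sulfatase gene Sulf2 fell by 0.77 and the polymerase gene Ext2 by 0.57 on that scale. Library totals alone gave 7 higher and 10 lower, and upper quartile scaling 8 and 8.

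**Figure D5:**
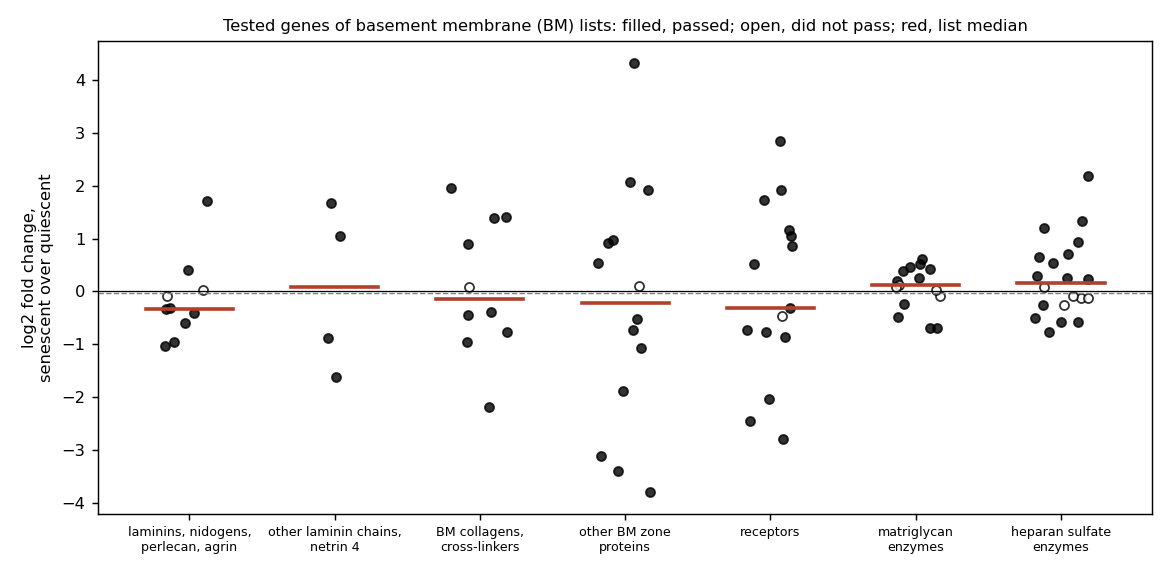
Log2 fold change (y axis) of every tested gene of the 10 laminin, nidogen and proteoglycan genes and of 6 related lists; filled points passed the test, open points did not, the red bar is the list median and the dashed line the median of all tested genes. The 10 genes have a median of -0.33, and Lama5 at 1.70 stands alone above the rest of them.

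Genes listed as markers of other cell types were measured in the same libraries. Their counts stand beside 36.7% higher and 37.8% lower over all tested genes. Of 10 endothelial markers 6 were tested, with 1 higher and 2 lower, and Pecam1, Tie1, Emcn and Cldn5 were under the filter. Cdh5 was higher by 2.32 on the log2 scale, and Tek and Erg had log2 fold changes of -2.67 and -2.56. The 10 summed to 3.66 to 5.22 CPM in senescent and 5.69 to 6.18 CPM in quiescent libraries. Tek averaged 0.534 CPM in senescent and 3.40 CPM in quiescent libraries, and Cdh5 1.16 and 0.234 CPM. Kdr was the most abundant in the senescent and Tek in the quiescent group. Epithelial markers summed to 6.11 to 7.92 CPM in senescent and 1.24 to 1.27 CPM in quiescent libraries, and the most abundant was Krt19, at 6.59 ± 0.897 CPM in senescent and 0.847 ± 0.0405 CPM in quiescent libraries. Of the 10, only Krt18 and Krt19 were tested and both were higher, Epcam, Cdh1 and Sftpc were under the filter, and Nkx2-1 was at 0 in all 6 libraries. Smooth muscle and pericyte markers summed to 644 to 841 CPM in senescent and 170 to 205 CPM in quiescent libraries. Of the 10, 7 were higher and 2 lower. Tagln was the most abundant in the senescent and Acta2, by mean, in the quiescent group. Tagln averaged 487 CPM in senescent and 77.9 CPM in quiescent libraries, and Acta2 averaged 190 and 80.8 CPM. Notch3 and Abcc9 were the 2 lower, with log2 fold changes of -0.63 and -0.90. Kcnj8 did not pass, and Rgs5 was higher by 0.39. Of 7 mesothelial markers 1 was higher, Krt19, which is also among the epithelial markers, 3 were lower and 3 did not pass. The lower ones were Rspo1, Upk3b and Msln, with log2 fold changes of -4.19, -1.64 and -0.67. The 7 summed to 10.4 to 12.8 CPM in senescent and 10.1 to 11.7 CPM in quiescent libraries, sums that include the higher Krt19. Rspo1 averaged 0.154 CPM in senescent and 2.82 CPM in quiescent libraries, and Upk3b 1.08 and 3.34 CPM. Of 9 macrophage and leukocyte markers 5 were tested and all 5 were higher, with Cd14 the most abundant. Ptprc, Adgre1, Itgam and C1qa were under the filter. The 9 summed to 10.9 to 14.4 CPM in senescent and 4.01 to 4.26 CPM in quiescent libraries. The part of these shifts in the values of the laminin, nidogen and proteoglycan genes was not tested.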

How the data were processed

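The deposited gene table holds unnormalized read counts for each gene symbol, whole numbers whose totals differ between libraries. The submitters' processing notes list mm10, edgeR 3.32.1 and limma 3.46.0 without saying what each did. The library kit keeps strand, and the sources used here do not give the aligner, the counter or its strand setting. A second table of repeat names was not used here. The genes and lists were chosen with earlier results of these data known.

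All genes were fitted at once in edgeR 4.0.16 (R 4.3.3): rows were kept by filterByExpr (minimum count 10), scaled by TMM and tested by robust quasi-likelihood, and p-values were adjusted by Benjamini-Hochberg over the 14065 genes kept, with a threshold of 0.05. Standard errors are the log2 fold change over the square root of F, and intervals use the fit's total degrees of freedom. The fit was tested on data simulated with 1 common dispersion and 50 genes changed at each fold, far fewer than were called here. The changed genes were drawn only from those with a mean count above 50, and no library was made to stand apart. The fit recovered 48% of 1.25-fold, 96% of 1.5-fold and 100% of 2-fold changes, and 10 of 182 calls were false. These shares do not cover genes with fewer counts. Ratios and shares were compared by exact two-sided permutation over libraries.

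Gene positions and lengths came from the GENCODE M21 annotation of GRCm38, the assembly that mm10 names, where 24321 of 25239 symbols, and all 10 genes, matched once. From 6 related lists, up to 2 genes in each direction were named, by size of fold change, if they passed and their mean log2 CPM was 0 or more; the 3 nearest profiles were named for the highest and lowest of the 10 genes. Col4a1, Lamb3, and Sdc4, Itgb1 and Dag1 among the receptors were named after their values were seen. So were Kdr, Cdh5, Erg, Col3a1, Col1a2, Pdgfrb, Lum, Thy1, Vim and Dcn among markers. The same holds for Acta2, Krt18, Notch3, Abcc9, Kcnj8, Rgs5, Rspo1, Upk3b and Msln. Some genes that this rule names are not reported here. There were 17 alternatives: DESeq2 1.42.0, limma-voom (limma 3.58.1), other filters, scalings and thresholds, a replicate block, and leaving out each library in turn. The adjusted p threshold of 0.01 was applied to the main fit itself, so its fold changes and adjusted p are those of that fit.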

Additional observations from a re-analysis of the deposited data

How the results depend on the processing

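Lama2, Lama4, Lama5, Lamb2, Lamc1, Nid2 and Agrn kept their direction and their call in all 16 alternatives other than the 2-fold threshold; Lamb1, Nid1 and Hspg2 did not. Lamb1 turned to -0.27 under library totals alone. When glmTreat asked for a change beyond 2-fold, it called 1154 of all genes higher and 1309 lower; 1 of the 10 genes was higher (Lama5) and 0 were lower; the related lists then gave 1 higher and 1 lower for other laminin chains, 3 higher and 1 lower for the collagens, 3 and 4 for the membrane zone, 4 and 3 for receptors, 0 and 0 for the dystroglycan enzymes, and 3 and 0 for heparan sulfate enzymes. Under library totals alone, 2952 of all genes were higher, as were 1 of the 10 genes and 1 dystroglycan enzyme, and 10 heparan sulfate enzymes were lower (8 with upper quartile scaling). With the length of the longest transcript, the difference in alpha chain share between senescent and quiescent libraries was 20.3 points for Lama5, -17.2 for Lama4 and -3.13 for Lama2, against 30.4, -25.4 and -5.00 by merged exons. Leaving out any one library kept 2 of the 10 genes higher and 6 lower, or 7 lower without quiescent replicate 3.

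With the replicate number as a block, 5124 genes were higher and 5281 lower, and 2 and 6 of the 10 genes. Deviations from the group mean correlated at 0.051, -0.010 and 0.058 between same-numbered libraries (numbers 1 to 3, over 14065 genes). Between libraries of different number they ran from -0.10 to 0.056. With 3 libraries per group this cannot show whether same-numbered libraries share an origin, which is not stated. Lama1, Lama3, Lamb3 and Lamc3, at about 1 CPM or less, are limited by depth.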
